A study of Mus musculus with 6 samples.

Results

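The genes described here encode the nuclear subunits and close relatives of respiratory complex III, complex IV and ATP synthase. They were taken by symbol: every protein-coding gene whose symbol starts with Uqcr, Cox4, Cox5, Cox6, Cox7, Cox8 or Atp5, plus Cyc1, among array rows that carry 1 gene symbol. Where a gene had several rows, the brightest was used. This gave 42 of 22180 genes, of which 8 belong to complex III, 17 to complex IV and 17 to ATP synthase. Uqcr10 and Cox6c lie only on rows that carry several symbols and were not analysed here, and the pseudogenes Atp5c1-ps and Uqcrh-ps1 were left out as not protein-coding. Many of these subunit genes have processed pseudogenes elsewhere in the genome, so array rows can read more than the named gene.

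Affymetrix arrays were used to measure RNA from pooled hearts of C57BL/6 mouse embryos at embryonic day 9.5. The control group was 3 pools of Hdac3-flox/flox hearts, which carry the floxed Hdac3 alleles and no Cre. The other group was 3 pools of Hdac3-flox/flox; Isl1-Cre hearts, called Hdac3-Isl1KO, in which Cre is expressed from Isl1 and so acts in the second heart field lineage and other Isl1-expressing cells. Both groups therefore share the floxed alleles, and an effect of the Isl1-Cre allele cannot be told apart from an effect of losing Hdac3. The labels do not say how many hearts or litters each pool held, so p-values reflect only how far these pools differ, which may be technical. In whole hearts, fewer cells of a type and less RNA per cell cannot be told apart. Hdac3, a histone deacetylase of corepressor complexes, read 9.67, 9.73 and 9.64 in Hdac3-flox/flox and 9.11, 9.20 and 9.31 in Hdac3-Isl1KO, a difference of -0.47 (limma adjusted p = 0.0636). The Hdac3 groups did not overlap, but the difference missed the threshold of 0.05.

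Complex III, ubiquinol-cytochrome c reductase, passes electrons from ubiquinol to cytochrome c through cytochrome b, cytochrome c1 and the Rieske iron-sulfur protein, and pumps protons. Complex IV, cytochrome c oxidase, hands the electrons to oxygen, and ATP synthase uses the proton gradient to turn a rotor of c subunits and make ATP in its F1 head. Each complex combines catalytic proteins, some of them encoded in mitochondrial DNA, with many small accessory subunits encoded in the nucleus. Several complex IV subunits exist as a ubiquitous form and a form that is most abundant in heart and skeletal muscle, and the embryonic heart takes on the muscle forms as it matures.

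In the Hdac3-Isl1KO hearts 2 of the 42 genes rose, the muscle isoform gene Cox7a1 and the ATP synthase gene Atp5md, and 0 fell (limma, adjusted p under 0.05 over all genes). Over all genes 0.230% rose and 0.198% fell at this threshold, 0.428% together. At an unadjusted limma p under 0.05, 15 of the 42 were higher and 3 lower, where 6.57% and 7.96% of all genes were. In 16 of the 42 every Hdac3-Isl1KO array lay above every Hdac3-flox/flox array, and in 8 every one lay below. Over all genes these shares were 9.41% higher and 12.4% lower. Most of these subunit genes are bright, and among the 5545 brightest genes (mean log2 value of 7.78 or more) the shares were 14.0% higher and 23.9% lower, against 45.5% and 24.2% of the 33 members in that range. The share of members that lay higher was thus above the background on either count, and the share that lay lower was close to that of bright genes. The median difference of the 42 was 0.048 on the log2 scale, against 0.000094 over all genes and -0.028 over the brightest genes, and 25 of the 42 differences were above 0. Differences ran from -0.35 for Cox7c to 0.74 for Cox7a1, both small subunits of complex IV, and differences between roles were not tested.

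**Figure D1:**
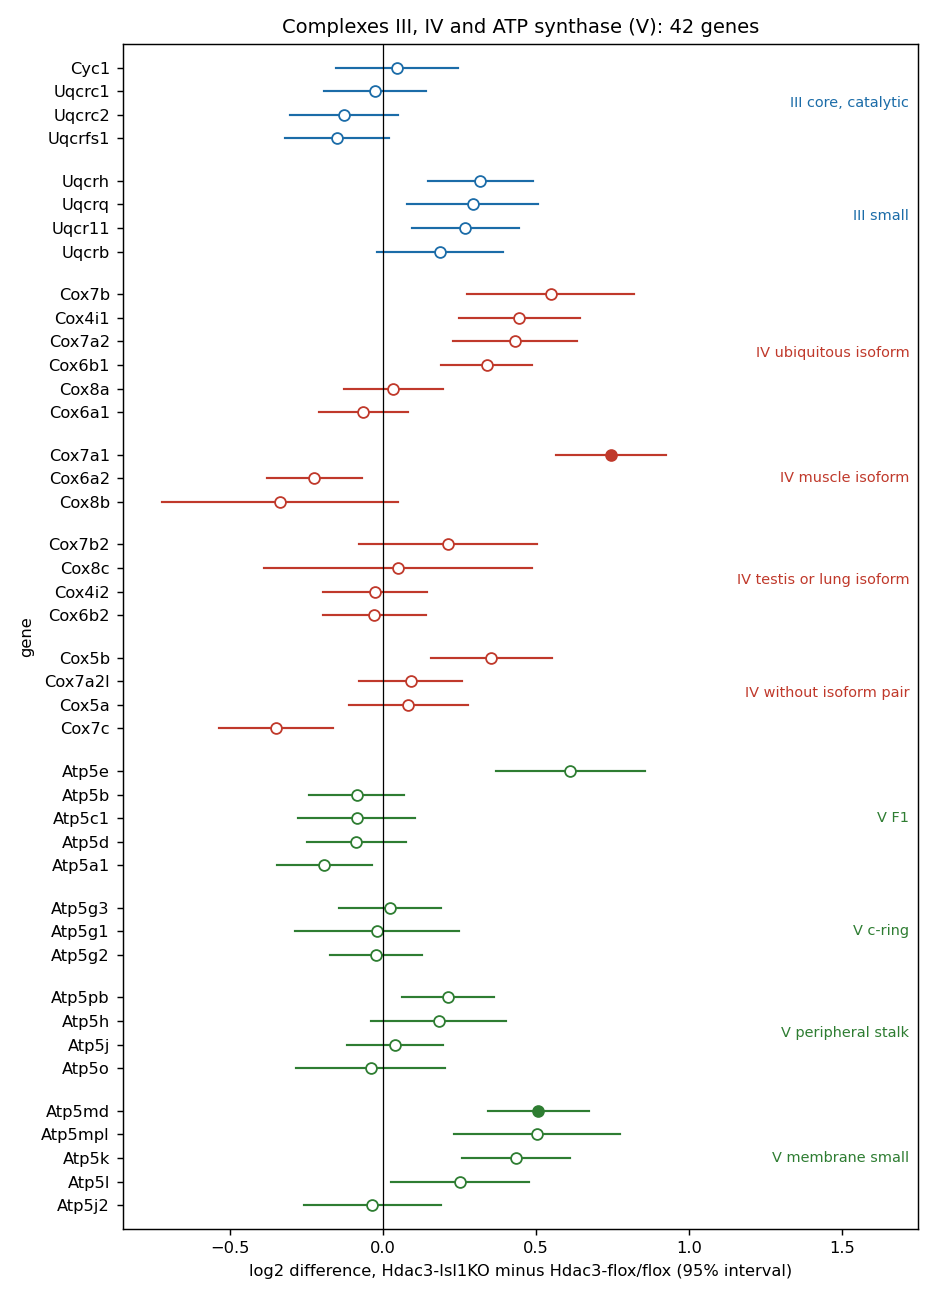
Log2 difference of each of the 42 genes (points) with its 95% interval from limma (lines), grouped by complex and role; filled points passed an adjusted p of 0.05. Cox7a1 at 0.74 and Atp5md at 0.51 are the filled points, and the core subunits of complex III and most F1 subunits lie at or left of 0.

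In complex III the 4 small subunit genes were each higher in all Hdac3-Isl1KO arrays, with a median difference of 0.28, and 3 of them had an unadjusted p under 0.05, but 0 of 4 passed with limma over all genes. Uqcrh, the hinge protein that docks cytochrome c1 with cytochrome c, read 9.64, 9.54 and 9.5 in Hdac3-flox/flox and 9.91, 9.81 and 9.92 in Hdac3-Isl1KO. Its difference was 0.32 (95% interval 0.15 to 0.49, limma adjusted p = 0.141), the largest of the complex. Uqcrq, a small subunit next to cytochrome b, read 7.07, 7.25 and 7.12 against 7.40, 7.58 and 7.34, a difference of 0.29 (limma adjusted p = 0.230). Uqcr11, the smallest subunit, read 7.81, 7.91 and 7.90 against 8.13, 8.07 and 8.23, a difference of 0.27 (limma adjusted p = 0.192). Uqcrb, which binds near the ubiquinone site, read 11.52, 11.67 and 11.60 against 11.92, 11.72 and 11.71 and differed by 0.19 (-0.018 to 0.39).

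The core and catalytic genes of complex III had a median of -0.076, with 3 of 4 below 0, 0 of 4 at an unadjusted limma p under 0.05, and 0 within the interval of each. Uqcrfs1, the Rieske protein gene, read 7.95, 8.05 and 8.01 in Hdac3-flox/flox and 7.91, 7.88 and 7.77 in Hdac3-Isl1KO. Its groups did not overlap, and the difference of -0.15 (95% interval -0.32 to 0.019, limma adjusted p = 0.400) was the lowest of the complex. Uqcrc2, a core scaffold protein gene, read 11.002, 11.06 and 11.02 against 10.98, 10.79 and 10.94, a difference of -0.13 (-0.30 to 0.050), also without overlap. Uqcrc1, its partner, differed by -0.025 (-0.19 to 0.14), and Cyc1, the cytochrome c1 gene, by 0.047 (-0.15 to 0.25). Both signs turned with some array left out, so no direction can be given for either.

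In complex IV the muscle isoforms did not move together. Cox7a1, the heart and skeletal muscle form of subunit 7a, read 9.10, 9.22 and 9.17 in Hdac3-flox/flox and 9.81, 9.94 and 9.98 in Hdac3-Isl1KO. The groups were far apart, and Cox7a1 rose by 0.74 (95% interval 0.56 to 0.93), which is 1.68-fold (limma adjusted p = 0.0209). Leaving out any 1 array kept the difference between 0.71 and 0.79 but took the adjusted p past the threshold each time, to between 0.0565 and 0.151. Cox6a2, the muscle form of subunit 6a, lay the other way, at 10.62, 10.65 and 10.66 against 10.35, 10.46 and 10.44. Its groups did not overlap, and the difference was -0.22 (-0.38 to -0.069, limma adjusted p = 0.213). Cox8b, the muscle form of subunit 8, was dim, with values of 5.74, 5.06 and 5.47 against 5.11, 5.05 and 5.10. The Hdac3-flox/flox arrays spread widely and the groups overlapped, with a difference of -0.34 (-0.72 to 0.050, limma adjusted p = 0.407). That difference was -0.18 without Hdac3-flox/flox replicate 1 and -0.52 without Hdac3-flox/flox replicate 2.

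The ubiquitous partner of Cox7a1 lay higher too. Cox7a2 read 10.20, 10.34 and 10.15 in Hdac3-flox/flox and 10.55, 10.73 and 10.70 in Hdac3-Isl1KO, without overlap. It differed by 0.43 (95% interval 0.23 to 0.63, limma adjusted p = 0.103). Cox6a1, the ubiquitous form of subunit 6a, was bright in all arrays, at 12.85, 12.86 and 12.80 against 12.79, 12.78 and 12.76, and differed by -0.063 (-0.21 to 0.083). Cox8a, the ubiquitous form of subunit 8, read 11.50, 11.45 and 11.36 against 11.48, 11.47 and 11.46 and differed by 0.035 (-0.13 to 0.20). Among the other ubiquitous forms, Cox4i1 read 10.13, 10.26 and 10.02 against 10.53, 10.57 and 10.64, a difference of 0.45 (limma adjusted p = 0.0951). Its product is the large regulatory subunit that meets ATP and ADP. Cox6b1, whose product joins the monomers of a complex IV dimer, read 9.63, 9.68 and 9.63 against 10.02, 9.95 and 9.99, a difference of 0.34 (limma adjusted p = 0.0924). Cox7b read 10.06, 10.44 and 10.08 against 10.69, 10.82 and 10.72, a difference of 0.55 (limma adjusted p = 0.119). In Cox4i1, Cox6b1, Cox7a2 and Cox7b every Hdac3-Isl1KO array lay above every control, and 0 of these 4 passed over all genes (limma), while all 4 had an unadjusted p under 0.05.

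**Figure D2:**
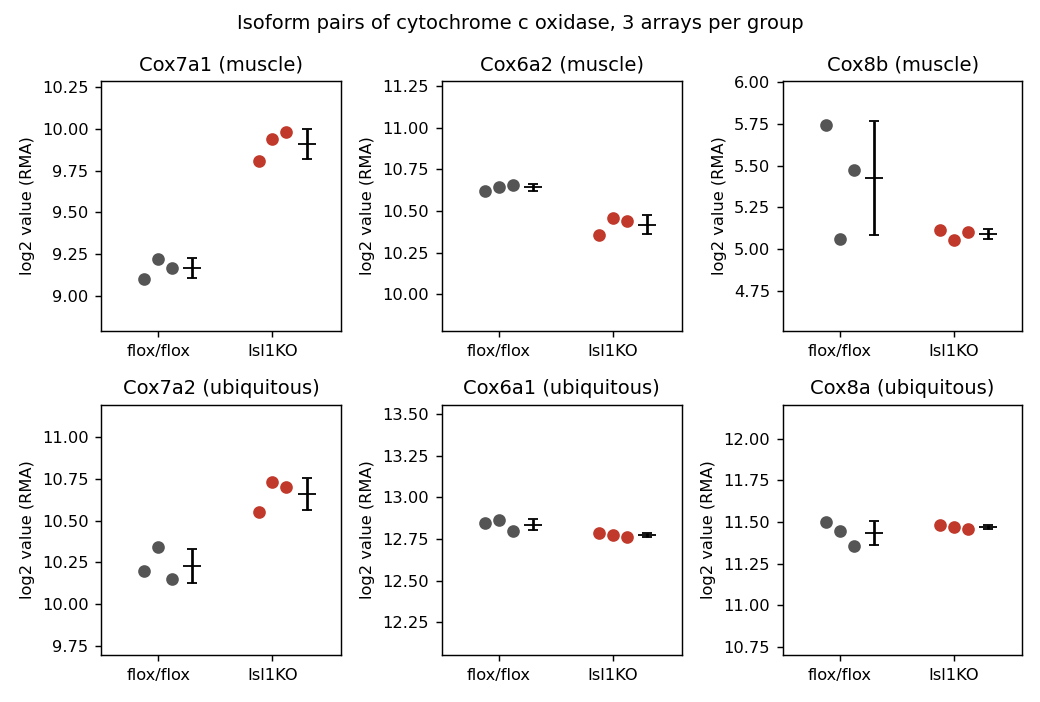
Log2 RMA value of each array (points) for the muscle form (top) and ubiquitous form (bottom) of subunits 7a, 6a and 8 of cytochrome c oxidase, with the mean and SD of 3 arrays beside them; every panel spans 1.5 log2 units. Cox7a1 and Cox7a2 sit higher in all Hdac3-Isl1KO arrays, Cox6a2 and Cox6a1 lower, and the Cox8b and Cox8a groups overlap.

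The balance between isoforms was compared within arrays, as the log2 ratio of the muscle to the ubiquitous form, in an exact two-sided permutation test over the 6 arrays. With 20 regroupings the smallest possible p is 0.10, so this test cannot reach 0.05. Relative to Cox7a2, Cox7a1 was higher by 0.31 in Hdac3-Isl1KO (95% interval 0.18 to 0.45, exact permutation p = 0.10, adjusted over 7 pairs 0.175), and its groups did not overlap. Relative to Cox6a1, Cox6a2 was lower by a log2 ratio of -0.16 (-0.29 to -0.032, exact permutation p = 0.10, adjusted 0.175), again without overlap, and by -0.098 under quantile normalization. The change of Cox8b relative to Cox8a was -0.37 (-0.91 to 0.17, exact permutation p = 0.30), an interval that holds both 0 and a large fall. The permutation p was at its floor for 4 of the 7 pairs, and 0 of 7 passed after adjustment.

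The remaining isoforms are known from testis, lung or hypoxic cells, and 0 of 4 had separate groups or an unadjusted limma p under 0.05. Cox4i2, the lung and hypoxia form, read 6.67, 6.68 and 6.55 against 6.58, 6.67 and 6.57, a difference of -0.024 (95% interval -0.19 to 0.14). Relative to Cox4i1 it was lower by a log2 ratio of -0.47 (-0.64 to -0.30, exact permutation p = 0.10, adjusted 0.175). Cox6b2, a testis form, read 6.58, 6.58 and 6.53 against 6.44, 6.57 and 6.60 and differed by -0.028 (-0.20 to 0.14). Cox7b2, also from testis, read 3.02, 3.12 and 3.16 against 3.25, 3.57 and 3.12 and differed by 0.21 (-0.077 to 0.50), or by 0.085 without Hdac3-Isl1KO replicate 2, its highest array. Cox8c, the testis form of subunit 8, read 4.51, 3.95 and 4.26 against 4.01, 4.58 and 4.28 and differed by 0.049 (-0.39 to 0.49). Cox7b2 and Cox8c had mean log2 values of 3.21 and 4.27, below the 25th percentile of array rows at 4.45, a level at which a row may hold little signal above background. The log2 ratio changed by -0.37 for Cox6b2 over Cox6b1 (-0.55 to -0.18, exact permutation p = 0.10), by -0.34 for Cox7b2 over Cox7b (-0.77 to 0.099, exact p = 0.20) and by 0.015 for Cox8c over Cox8a (-0.62 to 0.65, exact p = 0.90). For Cox4i2 and Cox6b2 the ratio moved because the ubiquitous gene was higher, and the isoforms themselves differed by -0.024 and -0.028.

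Of the complex IV subunits without an isoform pair, Cox5b and Cox7c lay on opposite sides. Cox5b, a zinc-binding subunit on the matrix side, read 10.09, 10.01 and 10.01 in Hdac3-flox/flox and 10.52, 10.28 and 10.38 in Hdac3-Isl1KO, a difference of 0.35 (95% interval 0.16 to 0.55, limma adjusted p = 0.148). Cox7c, a small membrane subunit, read 9.04, 9.08 and 8.98 against 8.79, 8.58 and 8.69. Its groups did not overlap, and its difference of -0.35 (-0.53 to -0.16, limma adjusted p = 0.141) was the lowest of all 42 genes. Cox5a differed by 0.084 (-0.11 to 0.28). Cox7a2l, whose product ties complex III to complex IV in supercomplexes, differed by 0.091 (-0.079 to 0.26).

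In ATP synthase 1 gene rose, the small membrane subunit gene Atp5md. Atp5md, known as DAPIT and needed to keep ATP synthase dimers stable, read 11.91, 11.99 and 11.94 in Hdac3-flox/flox and 12.50, 12.37 and 12.49 in Hdac3-Isl1KO. It rose by 0.51 (95% interval 0.34 to 0.67), which is 1.42-fold (limma adjusted p = 0.0457). Its adjusted p was 0.0606 with arrays centred on their medians and between 0.101 and 0.195 with any 1 array left out, while the difference stayed between 0.49 and 0.55. Atp5mpl, another small membrane subunit gene, read 9.66, 9.90 and 9.69 against 10.45, 10.21 and 10.10, a difference of 0.50 (0.23 to 0.78, limma adjusted p = 0.142). Atp5k, for subunit e, read 8.86, 8.79 and 8.98 against 9.29, 9.32 and 9.34, a difference of 0.44 (0.26 to 0.61, limma adjusted p = 0.0736). Subunits e and g sit at the dimer interface and bend the inner membrane. Atp5l, for subunit g, read 10.15, 10.29 and 10.15 against 10.58, 10.29 and 10.47 and differed by 0.25 (0.027 to 0.48), with groups that barely cleared each other. Atp5j2, for subunit f, differed by -0.034 (-0.26 to 0.19). In 4 of these 5 genes every Hdac3-Isl1KO array lay above every control, and their median was 0.44.

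The F1 part, which holds the catalytic sites, lay near or below 0 with 1 exception. Atp5a1, for the alpha subunit of the head, read 12.28, 12.28 and 12.20 against 12.10, 12.04 and 12.04, a difference of -0.19 (95% interval -0.34 to -0.037, limma adjusted p = 0.258). Atp5b, for the catalytic beta subunit, read 12.99, 12.96 and 12.94 against 12.93, 12.83 and 12.87, a difference of -0.085 (-0.24 to 0.069). Atp5d, the delta subunit gene, read 9.46, 9.45 and 9.46 against 9.29, 9.40 and 9.42, a difference of -0.086 (-0.25 to 0.076). In Atp5a1, Atp5b and Atp5d the groups did not overlap. Atp5c1, for the gamma subunit that turns inside the head, differed by -0.086 (-0.28 to 0.10). The exception was Atp5e, for the small epsilon subunit at the foot of the central stalk, at 8.41, 8.62 and 8.30 against 9.04, 8.97 and 9.16. Its groups were separate and its difference of 0.61 (0.37 to 0.86, limma adjusted p = 0.0719) was exceeded among the 42 only by Cox7a1. It passed the threshold in 4 of 13 alternative settings, and its limma adjusted p ranged from 0.00209 to 0.255 over them.

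The c-ring is encoded by 3 genes that make the same mature protein, and none had separate groups. Atp5g1 differed by -0.019 (95% interval -0.29 to 0.25), Atp5g2 by -0.023 (-0.17 to 0.13) and Atp5g3 by 0.023 (-0.14 to 0.19), and each sign turned in some setting. In the peripheral stalk, which holds the head still, Atp5pb for subunit b read 10.37, 10.42 and 10.44 against 10.65, 10.63 and 10.59, a difference of 0.21 (0.064 to 0.36, limma adjusted p = 0.218). Its groups did not overlap. Atp5j for subunit F6 differed by 0.041 (-0.12 to 0.20) and Atp5o for the OSCP subunit by -0.039 (-0.28 to 0.20).

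Atp5h, for subunit d of the peripheral stalk, gave no single answer. Its brighter row read 11.57, 11.74 and 11.49 in Hdac3-flox/flox and 11.71, 11.73 and 11.91 in Hdac3-Isl1KO, with overlap and a difference of 0.18 (95% interval -0.039 to 0.40). Its other row read 9.04, 9.15 and 8.93 against 8.69, 8.59 and 8.45, without overlap and with a difference of -0.46 (limma adjusted p = 0.107 over 23521 rows). The rows differed in sign, and the mean of both was -0.14. The other 5 genes with a further row kept their sign there, at 0.29 for Atp5e, 0.25 for Cox7b, 0.029 for Cox5b, -0.0058 for Atp5g2 and -0.28 for Atp5d. In all 5 of these rows the groups overlapped, with limma adjusted p-values from 0.453 to 0.979 over 23521 rows. The further row of Atp5d held 1 low array, Hdac3-Isl1KO replicate 1 at 8.24, against 9.74 and 9.83 in the others of its group. Those others lay above the controls, at 9.46, 9.70 and 9.51, so the sign of that row rests on the low array. For Cox5b the further row was dim, at 5.12 and 5.15 in the groups.

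**Figure D3:**
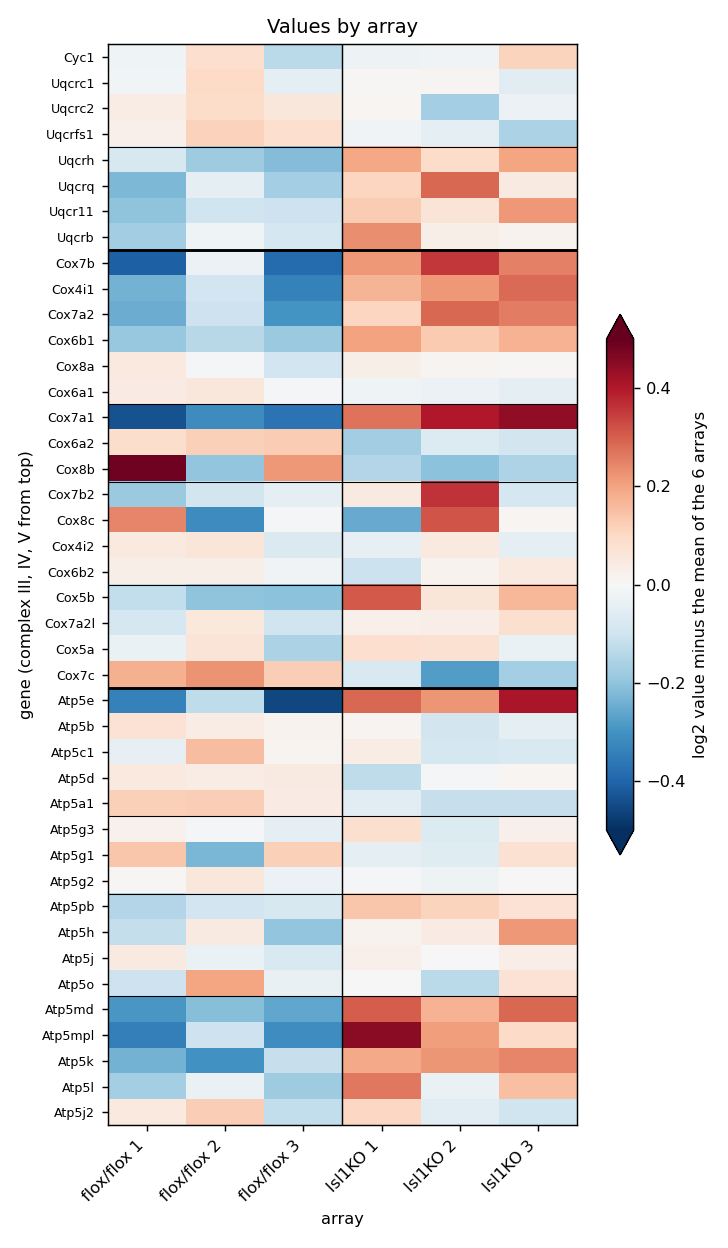
Log2 value of each gene in each array minus the mean of the gene's 6 arrays (colour, saturating at 0.5 either way); thick lines divide complexes III, IV and ATP synthase, thin lines the roles. The small subunit genes of complex III turn from blue in every Hdac3-flox/flox array to red in every Hdac3-Isl1KO array, as do Cox7a1, Cox4i1, Cox7a2, Atp5e and Atp5md, while Cox7c and Atp5a1 turn the other way.

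Averages by array are given for 3 sets in which most genes lay higher in every Hdac3-Isl1KO array. The separation of these averages therefore follows largely from that choice. Averaged over the 4 small complex III genes, the deviation from a gene's own mean was -0.17, -0.086 and -0.15 in the Hdac3-flox/flox arrays and 0.16, 0.12 and 0.12 in the Hdac3-Isl1KO arrays. Over the 5 small membrane genes of ATP synthase it was -0.20, -0.11 and -0.20 against 0.26, 0.10 and 0.13. Over the 6 ubiquitous complex IV isoforms it was -0.16, -0.052 and -0.22 against 0.12, 0.16 and 0.15. In the other sets by role or isoform such averages overlapped between the groups. Over the F1 genes of ATP synthase they were -0.027, 0.045 and -0.067 in Hdac3-flox/flox and 0.031, -0.016 and 0.035 in Hdac3-Isl1KO. In the averages of the 3 sets named first, Hdac3-flox/flox replicate 2 lay nearest to the Hdac3-Isl1KO arrays among the controls. Without that array the median of the 42 genes was 0.075, that of complex III 0.16 and that of complex IV 0.14, against 0.12 and 0.084 with all arrays for complexes III and IV. Without Hdac3-flox/flox replicate 3 the median of the 42 was 0.031. The ATP synthase median of 0.023 had no stable sign, at -0.00057 without Hdac3-Isl1KO replicate 1, 0.049 without Hdac3-Isl1KO replicate 2 and -0.014 from averaged rows.

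Promoter sequences of 32 of the 42 genes were available from RefSeq (assembly GRCm38.p6), as 35 windows from 250 bases before to 50 after a transcription start. Nuclear respiratory genes are known targets of NRF1, of the ETS factor GABPA, of YY1 and of the estrogen-related receptors (ERR). The letters CCGGAAG, a core of ETS sites, occurred on either strand in 11 of 35 member windows (31.4%) and in 8.86% of all 32851 windows. TGCGCANGC, part of the NRF1 site, occurred in 4 of 35 (11.4%, against 4.16% of all), AAGATGGCG, a YY1 core, in 2 of 35 (5.71%, against 1.4%), and TNAAGGTCA, an extended ERR site, in 1 of 35 (2.86%, against 1.28%). The motifs differ in their letters and were counted separately. Among the 12 genes with a window and all Hdac3-Isl1KO arrays higher, 7 held the ETS letters: Atp5e, Atp5k, Atp5l, Atp5md, Cox6b1, Uqcr11 and Uqcrh. Of the other 20 member genes with a window 4 did. In the same 12 genes the NRF1 letters occurred in 1, the YY1 letters in 0 and the ERR letters in 0, against 3, 2 and 1 of the other 20. The difference between these sets was not tested. Member windows are rich in CpG, with a median of 19 CpG against 7 over all windows, and the part of base composition in these shares was not tested.

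The windows of both genes that rose are shown, with that of Cox7a2 as the ubiquitous partner of Cox7a1 and that of Uqcrh as the complex III gene with the largest difference. Sequences run 5′ to 3′ on the gene's strand, and capitals mark a match to one of these motifs.
Cox7a1 (chr7:30183921-30184220, plus strand): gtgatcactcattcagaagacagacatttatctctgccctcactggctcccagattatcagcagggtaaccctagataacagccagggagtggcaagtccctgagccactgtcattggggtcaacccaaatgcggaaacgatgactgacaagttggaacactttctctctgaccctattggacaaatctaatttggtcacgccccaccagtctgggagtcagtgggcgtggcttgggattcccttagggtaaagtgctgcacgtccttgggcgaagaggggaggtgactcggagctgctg
Cox7a2 (chr9:79759804-79760103, minus strand): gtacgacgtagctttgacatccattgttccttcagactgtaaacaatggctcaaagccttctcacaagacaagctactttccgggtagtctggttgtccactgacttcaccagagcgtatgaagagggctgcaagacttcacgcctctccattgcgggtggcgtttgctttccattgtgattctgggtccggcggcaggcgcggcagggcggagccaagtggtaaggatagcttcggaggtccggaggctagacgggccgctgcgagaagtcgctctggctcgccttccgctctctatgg
Atp5md (chr19:47090598-47090897, minus strand): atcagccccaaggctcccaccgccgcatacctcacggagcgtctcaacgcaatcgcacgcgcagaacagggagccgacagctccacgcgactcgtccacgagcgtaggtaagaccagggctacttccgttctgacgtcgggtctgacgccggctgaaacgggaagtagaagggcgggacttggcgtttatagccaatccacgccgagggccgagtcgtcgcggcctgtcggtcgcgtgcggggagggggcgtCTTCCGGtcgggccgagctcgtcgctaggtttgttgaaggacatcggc
Uqcrh (chr4:116075021-116075320, minus strand): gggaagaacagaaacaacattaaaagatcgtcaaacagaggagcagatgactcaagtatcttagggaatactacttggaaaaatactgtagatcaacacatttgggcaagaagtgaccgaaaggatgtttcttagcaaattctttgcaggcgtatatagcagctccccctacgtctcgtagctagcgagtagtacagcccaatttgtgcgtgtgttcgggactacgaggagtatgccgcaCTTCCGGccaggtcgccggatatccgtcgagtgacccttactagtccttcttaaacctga

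The Atp5md and Uqcrh windows each hold the ETS letters on the opposite strand close to the start, where the match begins at position 3 and position -10 counted from the first transcribed base as 1. The Cox7a1 and Cox7a2 windows hold none of these letter strings. The Cox7a1 window has 7 CpG and 53.0% G and C, the Cox7a2 window 20 CpG and 56.7%, the Atp5md window 39 CpG and 65.0%, and the Uqcrh window 15 CpG and 46.7%. The muscle isoform gene thus has a window at the median CpG count of all promoters, and the other 3 lie above it.

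Other genes of the pathway were read from lists that were drawn up with earlier results of these data known. Of 33 measured genes listed under complex I, a list that includes Ndufa4, 2 rose and 0 fell. Their median difference was 0.17, where 0.230% of all genes rose and 0.198% fell. In 48.5% of the 33 every Hdac3-Isl1KO array lay above every control, against 38.1% of the 42 members and 9.41% of all genes. In 15.2% every one lay below, against 19.0% of the members and 12.4% of all genes. Ndufa4, whose product is now counted as a complex IV subunit, read 10.78, 10.81 and 10.80 in Hdac3-flox/flox and 11.31, 11.30 and 11.32 in Hdac3-Isl1KO, and rose by 0.51 (limma adjusted p = 0.0300). Ndufs4, for an accessory subunit of the electron input arm, read 8.85, 8.92 and 8.83 against 9.39, 9.41 and 9.44, and rose by 0.55 (limma adjusted p = 0.0300). As with Cox7a1, neither passed once any 1 array was removed, with limma adjusted p-values from 0.0669 to 0.156. The 3 measured subunits encoded in mitochondrial DNA lay slightly below 0: CYTB, the cytochrome b of complex III, at -0.054 and the catalytic complex IV subunits COX1 and COX3 at -0.039 and -0.096. None of these 3 had separate groups, at log2 values of 13.2 to 13.7 near the top of the range of the arrays.

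Of 6 genes for complex II and cytochrome c 0 passed with limma, while 2 reached an unadjusted p of 0.05. Sdha, the catalytic flavoprotein of complex II, differed by -0.17, Cycs, the somatic cytochrome c, by 0.21 and Sdhd, a membrane anchor, by 0.15 (limma adjusted p-values from 0.285 to 0.445). For assembly factors of complexes III, IV and ATP synthase, limma called 0 of 31, and at an unadjusted p under 0.05 there were 7 above and 3 below 0. Uqcc2, which helps cytochrome b into complex III, read 7.07, 7.07 and 6.98 against 7.52, 7.83 and 7.79, a difference of 0.67 (limma adjusted p = 0.0541). Pet100, a complex IV assembly factor, differed by 0.42, and Ttc19, which clears fragments of the Rieske protein from complex III, by -0.28 (limma adjusted p = 0.105 and 0.170). A list of 6 further partners held 0 called by limma and 2 at an unadjusted p under 0.05, the assembly factors Dmac1, which is known from complex I, at 0.22 and Tmem242 at 0.22. The phosphate carrier Slc25a3 stood at -0.14.

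Regulators of respiratory genes had a median of 0.012, and limma called 0 of 18, with 1 at an unadjusted p under 0.05. Ppargc1a, the coactivator PGC-1alpha that drives mitochondrial biogenesis, read 9.89, 9.95 and 9.81 against 9.72, 9.71 and 9.72, a difference of -0.17 (limma adjusted p = 0.323). Tfb2m, a factor for mitochondrial transcription, differed by -0.30 with overlapping groups, and Gabpa, the ETS factor named above, by -0.14 without overlap (limma adjusted p = 0.411 and 0.433).

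Genes for cytosolic and mitochondrial ribosomal proteins, which are also short and highly expressed, were set beside the subunits after the subunits' values were seen. Of 66 Rpl and Rps genes 5 rose and 0 fell (limma), with a median of 0.22 and 56.1% of them higher in every Hdac3-Isl1KO array. Of 71 Mrpl and Mrps genes limma called 0, with a median of 0.12 and, at an unadjusted p under 0.05, 22 higher and 1 lower. In 35.2% of these 71 every Hdac3-Isl1KO array lay above every control, against 38.1% of the members and 9.41% of all genes. Every one lay below in 4.55% of the Rpl and Rps genes and 2.82% of the Mrpl and Mrps genes. That share was 19.0% of the members and 12.4% of all genes. The median of each set lay above 0, with 10 of the 66 and 23 of the 71 genes below it, and any link to the subunit genes was not tested. Across the 42 genes the difference had a Spearman rho of -0.011 with gene span and 0.049 with mean level, where the genes share the same 6 arrays.

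**Figure D4:**
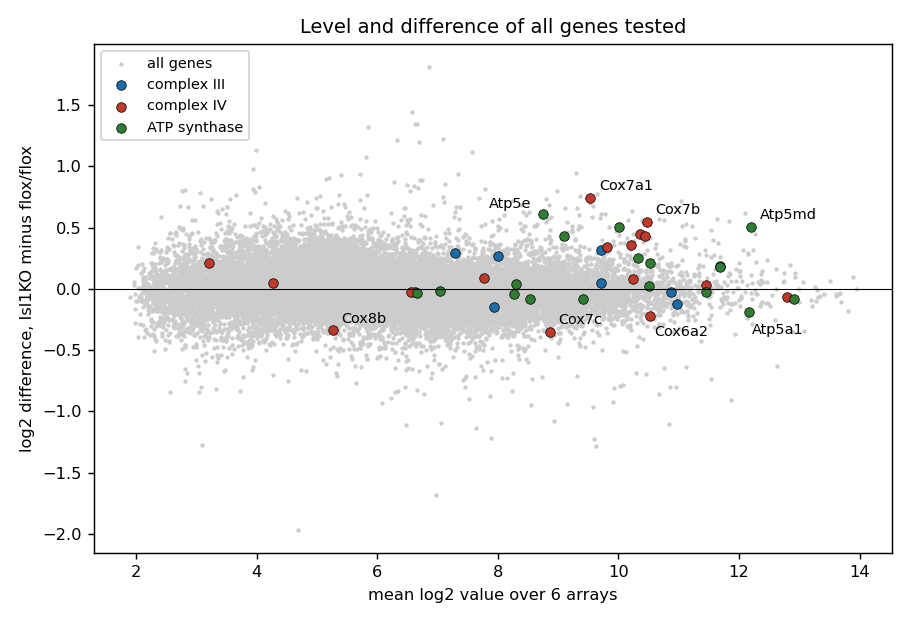
Mean log2 value over 6 arrays (x) and log2 difference, Hdac3-Isl1KO minus Hdac3-flox/flox (y), for 22180 genes (grey) and the 42 members by complex. Most members lie among the bright genes. Of the 42 members, Cox7a1 (0.74), Atp5e (0.61), Cox7b (0.55) and Atp5md (0.51) lie highest and Cox7c (-0.35) lowest.

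Marker lists of heart cell types and of other embryonic and extraembryonic tissues were read as well. Some lay higher or lower and others overlapped between the groups, and their part in the differences of the subunit genes was not tested. These lists, too, were drawn up with results of these data known, so their direction is not independent evidence. Cardiomyocyte markers lay lower, with 14 of 18 below 0 and 0 called by limma (2 higher and 3 lower at an unadjusted p under 0.05). In 12 of the 18 every Hdac3-Isl1KO array lay below every control, and in 1 every one lay above. Those shares were 12.4% and 9.41% over all genes, and 23.9% and 14.0% among the brightest genes. The mean log2 level of the 18 per array was 11.32 to 11.34 in Hdac3-flox/flox and 11.22 to 11.27 in Hdac3-Isl1KO. All 18 lay above the 25th percentile of rows. Epicardial markers lay lower in 7 of 8, at 7.70 to 7.75 against 7.27 to 7.36, and the uroplakin genes Upk3b and Upk1b fell by 0.94 and 0.72. Smooth muscle markers lay higher in 6 of 6, at 9.21 to 9.30 against 9.40 to 9.44, with 0 called by limma and 3 at an unadjusted p under 0.05.

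Markers of skeletal muscle, the other tissue rich in Cox7a1, lay higher in 8 of 10, at 5.61 to 5.73 against 5.76 to 5.85. Limma called 0, and 2 had an unadjusted p under 0.05, Myh3 at 0.35 and Acta1 at 0.17. The muscle regulator genes Myf5, Myf6, Myod1 and Myog differed by 0.26, 0.15, 0.11 and -0.0065. Their groups overlapped, with limma adjusted p-values from 0.458 to 0.984. Among the 10 markers, Myf6 and Myh3 lay below the 25th percentile of rows. Markers of trophoblast lay higher in 7 of 8, at 5.14 to 5.36 against 6.13 to 6.23, and Prl4a1, Prl7a1, Prl3d3, Psg29 and Cyp11a1 rose by 1.22 to 1.81, while Tpbpa and Tfap2c lay below that percentile. Hepatic and yolk sac endoderm markers lay higher in 10 of 12, at 5.17 to 5.32 against 5.57 to 5.67, where the fibrinogen gene Fgb rose by 0.93 and Fga lay below that percentile. Simple epithelium markers lay higher in 10 of 10, at 5.72 to 5.75 against 6.02 to 6.07, with 0 called by limma and 7 at an unadjusted p under 0.05. Array means overlapped between the groups for primitive erythroid markers (8.74 to 8.78 and 8.72 to 8.79), endothelial markers (8.87 to 8.93 and 8.85 to 8.88), neural crest markers (5.19 to 5.49 and 5.36 to 5.53) and macrophage markers (5.71 to 5.94 and 5.90 to 6.05).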

How the data were processed

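Expression was measured in 6 pools of embryonic hearts, 3 per genotype. Per the labels' protocols, cDNA was made from 100 ng of total RNA with a whole-transcript kit. The authors deposited log2 values that, per the submitters' processing notes, came from oligo with RMA (background correction, quantile normalization and summary of probes). Versions, genome build and scan dates were not given, so batches could not be tested. RMA compresses differences of dim genes.

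Names came from GEO's annotation of the array. Of 41345 rows, 23521 carried 1 symbol, 1814 several and 16010 none listed. Gene types came from RefSeq (GRCm38.p6), which matched 23328 of the single-symbol rows and all 42 members. The brightest row stood for each gene. A two-sided limma model (version 3.58.1, R 4.3.3, eBayes with a constant prior) was fitted to all 22180 genes (4 residual degrees of freedom, 6.92 with the prior), with Benjamini-Hochberg adjustment and a threshold of 0.05. The steps were tested on simulated data. Intervals are 95%. Ratios of isoforms were tested by exact permutation over the arrays. No arrays were duplicates (correlations 0.989 to 0.995).

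Every member is named. Full values were given for members past the threshold, both partners of each isoform pair, the highest and lowest of each complex and, beyond that rule, other members with separate groups. Genes of other lists were named when past the threshold, or else the 3 with the smallest p in pathway lists. Outside that rule, the skeletal muscle markers Myh3, Acta1, Myf5, Myf6, Myod1 and Myog and the dim markers Tpbpa, Tfap2c and Fga were named. None of these passed the threshold, and some markers with smaller p-values, such as Pln, Krt8 and Afp, were left unnamed. Members and lists were chosen with earlier results of these data known. The alternatives tried were quantile normalization, leaving out each array, a replicate block, median centring, no dim genes, averaged rows, a trended prior and array weights. A gene's other row, ribosomal protein genes and the brightest genes were added after the data were seen.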

Additional observations from a re-analysis of the deposited data

How the results depend on the processing

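The 24 members with separate groups kept their sign in every planned setting, which is largely fixed by that choice of genes. Leaving out 1 array cannot turn the sign of such a gene. A replicate block, a trended prior and leaving out dim genes keep the difference itself. In some setting 12 of the 42 members turned sign, and apart from Atp5h these had differences near 0. The calls depend on the variance model and on every array. All genes called were 95, and 2 to 25 with 1 array left out, when 0 to 0 members were called (limma; 15 to 19 members at an unadjusted p under 0.05). Quantile normalization gave 149 genes, and the change of Cox6a2 relative to Cox6a1 was then -0.098. Centring arrays on their medians gave 1 member called and 5 members lower in every array. Leaving out dim genes (25th percentile) gave 235 genes called and 5 members called higher, and Hdac3 at -0.47 passed (limma adjusted p = 0.0335). A trended prior gave 866 genes called, with 13 members called higher and 3 called lower, and Hdac3 at -0.47 passed (limma adjusted p = 0.00111). Array weights gave 243 genes called and 7 members called higher, with Hdac3 at -0.46 past the threshold (limma adjusted p = 0.0419). The cause of these changes was not tested. With 1 array left out, the median of members ran from 0.031 to 0.075, of complex III from 0.090 to 0.16 and of complex IV from 0.060 to 0.14.

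A replicate block gave 0 genes and 0 members called (limma; 2744 genes and 16 members at an unadjusted p under 0.05). Same-numbered arrays did not deviate together (correlations -0.013, -0.086 and 0.040), and 0 of 3 controls correlated best with their own number. No pairing by number was thus seen, but pairing by litter or batch could not be tested.

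Signs turned under quantile normalization for Uqcrc1 (0.0069), Cox4i2 (0.033), Cox6b2 (0.024), Atp5g1 (0.032), Atp5j2 (0.022) and Atp5o (0.0072), and with array weights for Cox8c (-0.014), Atp5g3 (-0.0019) and Atp5o (0.0056). Atp5h was -0.14 as the mean of its rows and -0.46 on its other row. With 1 array left out the ranges were -0.14 to 0.045 for Atp5g1, -0.055 to 0.018 for Uqcrc1, -0.096 to 0.19 for Cox8c, -0.044 to 0.00029 for Atp5g2, -0.10 to 0.020 for Atp5j2, -0.10 to 0.050 for Atp5o, -0.0097 to 0.10 for Cyc1, -0.0040 to 0.067 for Cox8a, -0.059 to 0.019 for Cox6b2 and -0.011 to 0.063 for Atp5g3. With 3 arrays a group, precision is limited throughout.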
